A study of Mus musculus with 20 samples.

Results

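The 9 genes described here, Tcf7l2, Lef1, Zic1, Prkcd, Rgs16, Plekhg1, Ramp3, Slc17a6 and Tnnt1, were taken from a list of thalamic markers and measured by RNA-seq in the hippocampus of adult mice. A gene was included when its symbol in the deposited gene map equalled a name on the list, and all 9 names were found among the 48709 genes of the count table. All 9 passed the filter on low counts, which left 19797 genes for testing. The animals were C57BL/6 (labels; C57BL/6J in the methods) offspring of dams exposed to re-aerosolized nano-sized particulate matter (nPM), airborne particles collected from urban air, or kept in filtered air as the control. Exposure ran for 5 h a day on 3 days of each week, from gestational day 2 to birth. The concentration was 300 in the labels, which gave the unit as mg/m3, whereas the methods gave micrograms. There were 4 groups of 5, the control and the nPM offspring of each sex, each sample being the right hippocampus of 1 animal from a saline-perfused brain. Females were 17.71 to 18.29 weeks old and males 18.57 to 19.14 weeks, so sex and age cannot be told apart. The methods also describe EdU, a label of dividing cells, injected in males before tissue collection, and do not make clear whether females received it, so sex may not be separable from this treatment either. Adult offspring came from 5 litters per exposure, so the 10 animals of an exposure cannot all be from separate litters. Which of them were litter mates was not given in the sources used here, and the p-values below treat animals as independent. This can make those of nPM against control too small where litter mates are alike. The direction of any effect on the other tests was not tested.

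Depth was known for every sample from its total count. Totals were 29685090, 26231112, 31254347, 35480715 and 22307445 counts in control females 1 to 5 and 29252770, 21220354, 28712638, 19092067 and 28694048 in nPM females 1 to 5. In males they were 28026459, 28290787, 28193095, 38663408 and 36937772 counts in controls and 37378472, 31189000, 35153717, 36650995 and 32791936 in the nPM group. Levels are given as CPM, each count divided by the sample's total over the tested genes times its TMM factor and brought to a common library size, always in the order of samples 1 to 5 of a group. A floor of 3 counts corresponded to 0.0784 CPM in the deepest sample and 0.164 CPM in the shallowest, and it covers counting error only.

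The thalamus lies beneath the hippocampus and relays sensory and motor signals to the cortex through glutamatergic projection neurons. Adult thalamic neurons are known for high Tcf7l2 and Lef1, the DNA-binding partners of beta-catenin in canonical Wnt signalling, and for Slc17a6, the vesicular glutamate transporter VGLUT2 typical of subcortical neurons. Prkcd marks sensory relay nuclei, and several of the 9 genes are also expressed in other forebrain regions, including septum, striatum, choroid plexus and hippocampus itself.

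The labelled tissue was compared with its defining markers first. Of 8 dentate gyrus markers 7 exceeded 1 RPKM (CPM per kilobase of gene length) in all 20 samples, as did 5 of 5 CA1 markers and 5 of 6 markers of CA2 and CA3. Markers of the thalamus outside the 9 were less uniform. By the same measure 7 of 15 other thalamic markers and 5 of the 9 listed genes exceeded 1 RPKM in all 20. Of the 15, 13 passed the filter on low counts, and Gbx2, a transcription factor of developing and adult thalamic neurons, had 0 to 3 counts in every sample. The other marker below the filter, Shox2, a homeobox factor, had 486 counts (12.9 CPM) in nPM male 1, 156 (4.99 CPM) in control female 1 and 41 (1.28 CPM) in control female 3, against at most 8 in each of the other 17 samples. The 9 genes did not vary as 1 thalamic signature, as the pairwise correlations below show, and they are called the 9 listed genes.

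A pair of samples stood apart from the rest before any test. nPM male 1 and control female 1 held 225 and 64 counts of Pou4f1, a POU-domain factor of the habenula and midbrain, against 0 to 6 in the other 18. They held 216 and 123 counts of Chrna3, a nicotinic receptor subunit, against 5 to 22. Plcb4, a phospholipase C of thalamic relay neurons, measured 138 CPM in nPM male 1 and 92.5 CPM in control female 1. It was 38.6 to 74.9 CPM in the other 18, highest in control female 3, so control female 1 stood less far apart for this gene. The other 5 habenular markers were mixed, in CPM for nPM male 1 and control female 1: Gpr151, an orphan receptor, 0.610 and 1.44 (the highest of all 20), Gng8, a G protein subunit, 0.928 and 0.416, Tac2, a tachykinin, 0.981 and 1.25, Nwd2 30.1 and 46.5, and Chrnb4, another nicotinic subunit, 3 and 6 counts. The sum of the 7 was highest in control male 1 (72.6 CPM), where Nwd2 made up 69.1 CPM. Pou4f1 and Chrna3 were singled out after their values were seen, and the spread, the shared variation and the nPM comparisons are summarised below with and without these 2 samples.

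Compared per length, the levels of the 9 listed genes fell into a broad order. The median RPKM over 20 samples was 8.37 for Slc17a6, 7.92 for Zic1, 6.53 for Prkcd, 4.77 for Plekhg1, 2.27 for Rgs16, 1.80 for Ramp3, 0.505 for Tcf7l2, 0.471 for Tnnt1 and 0.374 for Lef1. Neighbours in this order had overlapping ranges over the samples in every case. The higher gene of a step exceeded the lower in 12, 13, 14, 20, 15, 19, 11 and 14 of 20 samples, taken in the same order, so only Plekhg1 above Rgs16 held in every sample.

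The sequences before the start sites of Prkcd, Zic1, Rgs16 and Slc17a6 are shown because Rgs16 with Slc17a6 was the pair that passed the permutation test below, and Prkcd with Zic1 the pair whose slope on Zic1 held whichever sample was left out. RefSeq windows on build GRCm38.p6 matched 9 of 9 genes, and the part of the 250 bases upstream that lies outside annotated exons is printed 5′ to 3′ on the gene's strand. These are chr14:30626211-30626458 (minus strand), chr9:91365811-91366018 (minus strand), chr1:153740103-153740348 (plus strand) and chr7:51621580-51621829 (plus strand). Capitals mark CACGTG, a palindrome that reads alike on both strands and was picked after the sequences were seen.
Prkcd: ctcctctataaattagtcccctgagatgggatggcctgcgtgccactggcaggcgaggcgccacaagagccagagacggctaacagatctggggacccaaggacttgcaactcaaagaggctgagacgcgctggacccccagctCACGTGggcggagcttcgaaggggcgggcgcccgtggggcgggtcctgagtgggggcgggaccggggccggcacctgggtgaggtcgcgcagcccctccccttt
Zic1: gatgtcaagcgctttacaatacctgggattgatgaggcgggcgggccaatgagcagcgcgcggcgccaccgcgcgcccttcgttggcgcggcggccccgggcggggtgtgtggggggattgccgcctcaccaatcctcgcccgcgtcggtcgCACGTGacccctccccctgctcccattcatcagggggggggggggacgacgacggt
Rgs16: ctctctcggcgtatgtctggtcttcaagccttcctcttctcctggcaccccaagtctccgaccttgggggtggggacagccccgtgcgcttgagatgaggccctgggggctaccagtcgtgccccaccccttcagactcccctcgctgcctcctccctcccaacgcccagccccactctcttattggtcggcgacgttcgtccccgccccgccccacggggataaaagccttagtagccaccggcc
Slc17a6: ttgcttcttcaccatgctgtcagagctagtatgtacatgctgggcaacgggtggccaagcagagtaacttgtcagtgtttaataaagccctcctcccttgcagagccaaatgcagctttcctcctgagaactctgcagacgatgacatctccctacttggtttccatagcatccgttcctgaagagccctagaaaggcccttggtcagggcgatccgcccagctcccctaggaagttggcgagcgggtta
CACGTG occurred in 2 of the 9 windows of 250 bases, with its first base 106 bases before the RefSeq start of Prkcd and 98 bases before that of Zic1, and in 6.02% of all 32817 windows. The motifs that Tcf7l2 and Lef1 bind, CTTTGAA and CTTTGAT searched on both strands, were in 0 of the 9 windows, against 7.48% of all windows for either form. A match describes the letters only, and their absence from a window says nothing of the factors. Not all 9 windows end at the start given in the gene map. The RefSeq start minus that start was 132303 bases for Plekhg1 and -407 bases for Tnnt1, the farthest of the 9. All 250 bases of the Lef1 window lie in exons of Gm43352.

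The list held 3 transcription factors. Tcf7l2 (ENSMUSG00000024985.18, chr19:55741810-55933654, plus strand, build mm10) encodes a TCF factor of Wnt signalling, and its span overlaps Ppnr on the same strand. In CPM, Tcf7l2 measured 6.72, 4.36, 10.7, 3.95 and 6.27 in control females, 5.95, 5.06, 4.48, 3.997 and 6.57 in nPM females, 3.21, 4.97, 3.69, 5.43 and 3.91 in control males, and 12.6, 3.62, 3.75, 3.51 and 4.30 in nPM males. nPM male 1 was highest and control female 3 next, while the remaining samples of all 4 groups overlapped. Lef1 (ENSMUSG00000027985.14, chr3:131110471-131224356, plus strand) encodes the related lymphoid enhancer-binding factor and overlaps 2 predicted genes, 1 on each strand. In CPM, Lef1 measured 9.38, 3.63, 5.27, 1.95 and 4.58 in control females, 4.69, 3.24, 3.33, 2.03 and 5.48 in nPM females, 2.80, 3.36, 0.960, 2.56 and 2.79 in control males, and 11.8, 1.60, 3.83, 2.13 and 2.60 in nPM males. Here nPM male 1 and control female 1 were the highest and control male 3 the lowest, and the groups overlapped. Zic1 (ENSMUSG00000032368.14, chr9:91358058-91365810, minus strand), a zinc finger factor of dorsal and septal neurons and of meninges, overlaps Zic4 on the opposite strand; counting was not stated to use strand, so reads of the overlapped stretch cannot be assigned. In CPM, Zic1 measured 20.4, 46.2, 115, 44.0 and 37.1 in control females, 64.0, 9.11, 9.27, 6.02 and 23.8 in nPM females, 26.7, 88.8, 18.0, 117 and 37.1 in control males, and 51.7, 87.9, 51.1, 51.1 and 60.1 in nPM males. nPM females 2 to 4 were the lowest of all 20 samples, control male 4 and control female 3 the highest, and all 4 groups overlapped, with no nPM male below 51.1 CPM.

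A further 4 genes act in signalling. Prkcd (ENSMUSG00000021948.15, chr14:30595356-30626210, minus strand) encodes protein kinase C delta, activated by diacylglycerol, and no other gene overlaps it. In CPM, Prkcd measured 19.2, 33.9, 93.9, 42.2 and 37.1 in control females, 46.5, 24.0, 30.2, 23.6 and 16.4 in nPM females, 9.10, 46.8, 21.2, 58.5 and 27.7 in control males, and 28.0, 51.2, 34.7, 31.2 and 43.9 in nPM males. Control female 3 was the highest and control male 1 the lowest, and all 4 groups overlapped. Rgs16 (ENSMUSG00000026475.7, chr1:153740349-153745468, plus strand), a regulator that shortens G protein signals, overlaps a predicted gene on the opposite strand. In CPM, Rgs16 measured 7.52, 5.502, 3.90, 5.43 and 3.43 in control females, 3.41, 5.20, 4.72, 5.53 and 8.80 in nPM females, 6.30, 5.501, 4.39, 5.98 and 4.58 in control males, and 6.39, 3.88, 4.62, 6.11 and 4.63 in nPM males. The highest sample was nPM female 5, the lowest nPM female 1, and the groups overlapped. Plekhg1 (ENSMUSG00000040624.17, chr10:3740364-3967303, plus strand), a guanine nucleotide exchange factor, overlaps 3 genes on the opposite strand. In CPM, Plekhg1 measured 40.8, 38.3, 60.3, 45.5 and 45.1 in control females, 38.7, 43.5, 51.9, 46.5 and 43.4 in nPM females, 26.6, 39.1, 39.4, 37.7 and 32.6 in control males, and 42.3, 43.2, 41.1, 41.1 and 47.9 in nPM males. All 5 nPM males lay above all 5 control males, while females of both exposures overlapped each other and the nPM males. How many of all tested genes separate in this way is not given here. Ramp3 (ENSMUSG00000041046.7, chr11:6658521-6677475, plus strand), a partner protein of the calcitonin receptor family, overlaps a predicted gene on the opposite strand and had 19 to 117 counts per sample and 0.954 to 3.62 CPM, with the lowest value in nPM male 1 and the highest in nPM female 2.

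Slc17a6 (ENSMUSG00000030500.6, chr7:51622006-51671119, plus strand), the vesicular glutamate transporter, overlaps a predicted gene on the same strand. In CPM, Slc17a6 measured 76.0, 50.8, 42.1, 50.7 and 16.4 in control females, 20.7, 43.6, 31.6, 39.3 and 55.2 in nPM females, 44.2, 47.7, 55.6, 58.6 and 46.1 in control males, and 147, 42.2, 25.7, 63.1 and 34.9 in nPM males. nPM male 1 was the highest and control female 1 the next highest, and control female 5 was the lowest. Tnnt1 (ENSMUSG00000064179.13, chr7:4504570-4516382, minus strand) encodes slow skeletal muscle troponin T and is also transcribed in thalamic neurons. With 13 to 164 counts per sample, Tnnt1 measured, in CPM, 2.56, 0.764, 1.44, 0.835 and 0.979 in control females, 0.893, 0.620, 0.659, 1.04 and 1.21 in nPM females, 0.820, 1.04, 1.26, 0.941 and 1.09 in control males, and 4.35, 1.09, 1.05, 1.19 and 1.03 in nPM males. The same 2 samples were the highest for Tnnt1, and the other 18 lay within 0.620 and 1.44 CPM.

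**Figure D1:**
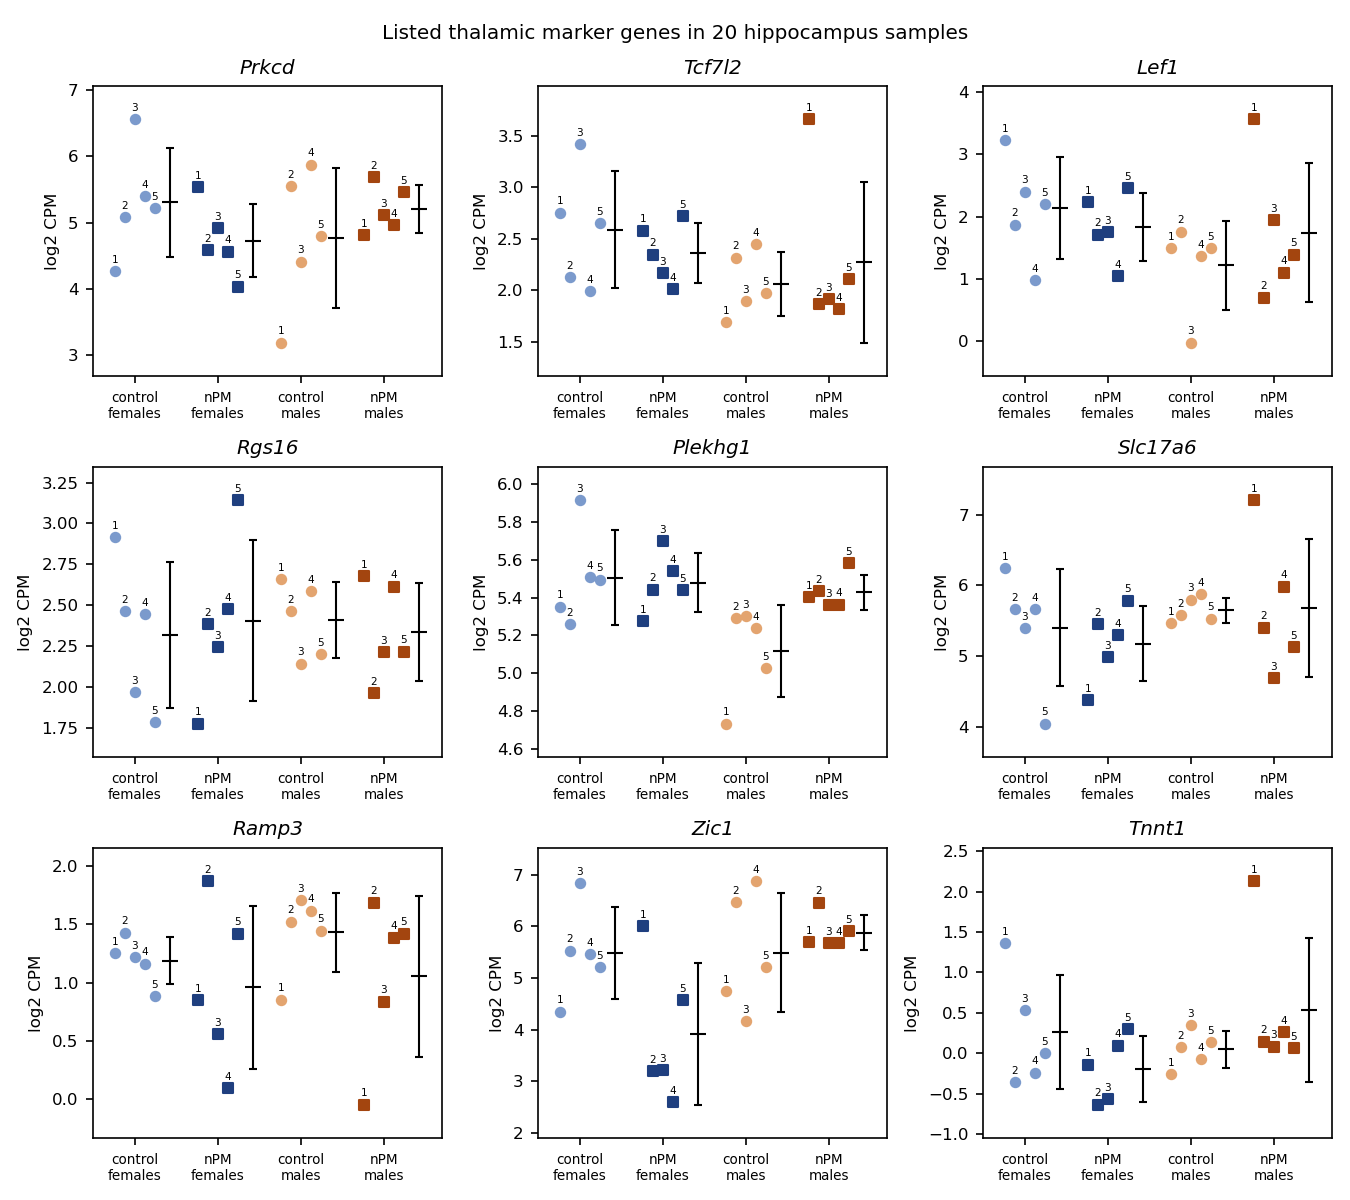
Level of each of the 9 listed genes (y axis, log2 CPM) in the 20 samples, grouped on the x axis by sex and exposure; each point is 1 sample marked with its number, and the bar is the group mean ± SD (n = 5). nPM male 1 reaches 147 CPM for Slc17a6 and 4.35 CPM for Tnnt1, and the groups overlap for each gene except Plekhg1 in males.

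Spread between samples of the same group differed widely among the 9 listed genes. The SD of log2 CPM within groups was 1.01 for Zic1, 0.83 for Lef1, 0.75 for Prkcd and 0.70 for Slc17a6, against a median of 0.26 over the 19797 genes tested. It was 0.61 for Tnnt1, 0.53 for Tcf7l2, 0.53 for Ramp3, 0.38 for Rgs16 and 0.20 for Plekhg1. Since low counts widen the spread, each gene was also set beside the 1000 genes nearest to it in mean level. Of these, 99.8% had a smaller SD than Zic1, 99.4% than Slc17a6, 99.3% than Prkcd, 94.8% than Lef1 and 88.1% than Tcf7l2. The shares were 80.1% for Tnnt1, 78.3% for Ramp3, 73.7% for Rgs16 and 72.9% for Plekhg1. Without control female 1 and nPM male 1, chosen after seeing the data, the SD was 1.03 for Zic1, 0.72 for Prkcd, 0.61 for Lef1, 0.53 for Slc17a6, 0.46 for Ramp3, 0.38 for Tcf7l2, 0.35 for Rgs16, 0.31 for Tnnt1 and 0.20 for Plekhg1, against a median of 0.26 over all genes. The share of genes of its level with a smaller SD was then 7.50% for Tnnt1, whose wide spread rested on these samples, 72.2% for Tcf7l2, 89.0% for Lef1, 98.9% for Slc17a6 and 99.8% for Zic1. In these bulk samples a varying number of expressing cells and varying RNA per cell cannot be told apart.

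**Figure D2:**
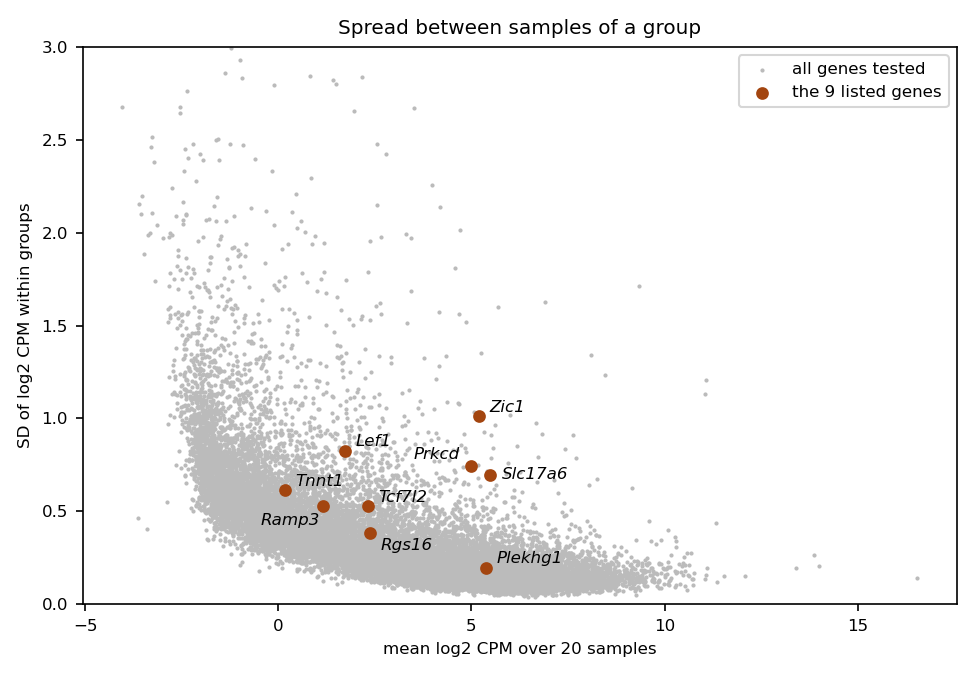
SD of log2 CPM within groups (y axis, shown up to 3) against mean log2 CPM over 20 samples (x axis) for all genes tested (grey) and the 9 listed genes (brown). Zic1 (1.01), Prkcd (0.75) and Slc17a6 (0.70) lie above most genes of their level, and Plekhg1 (0.20) lies among them.

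Shared variation was measured on log2 CPM with the mean of each group removed, over the 20 samples. The median Pearson r over the 36 pairs was 0.139, compared with -0.00200 over all pairs of genes tested, and 21 pairs were positive and 15 negative. Leaving out 1 sample moved it between 0.0489 (without control male 1) and 0.182 (without nPM female 3), and leaving out both control female 1 and nPM male 1 gave 0.127. The first principal component of the 9 standardized genes held 37.4% of their variance and the second 27.5%, where 1 gene alone makes up 11.1%. Loadings on the first were 0.48 for Tnnt1, 0.42 for Slc17a6, 0.41 for Lef1, 0.38 for Rgs16 and 0.35 for Tcf7l2, and negative for Zic1 (-0.12), Plekhg1 (-0.12), Ramp3 (-0.25) and Prkcd (-0.27). Samples with the highest scores were nPM male 1 (1.25), control female 1 (0.795) and nPM female 5 (0.501). On the second component Prkcd (0.52), Zic1 (0.47), Tcf7l2 (0.46) and Plekhg1 (0.39) loaded together. The make-up of the first component changed without nPM male 1 and control female 1, where it held 36.02% and was led by Tcf7l2 (0.51), Prkcd (0.46) and Zic1 (0.44), with Plekhg1 at 0.32, Lef1 0.28, Tnnt1 0.27, Ramp3 0.12, Slc17a6 -0.13 and Rgs16 -0.21. Tcf7l2 followed the mean of the other 8 most closely (r = 0.757) and Ramp3 least (r = -0.148), both given as descriptions.

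**Figure D3:**
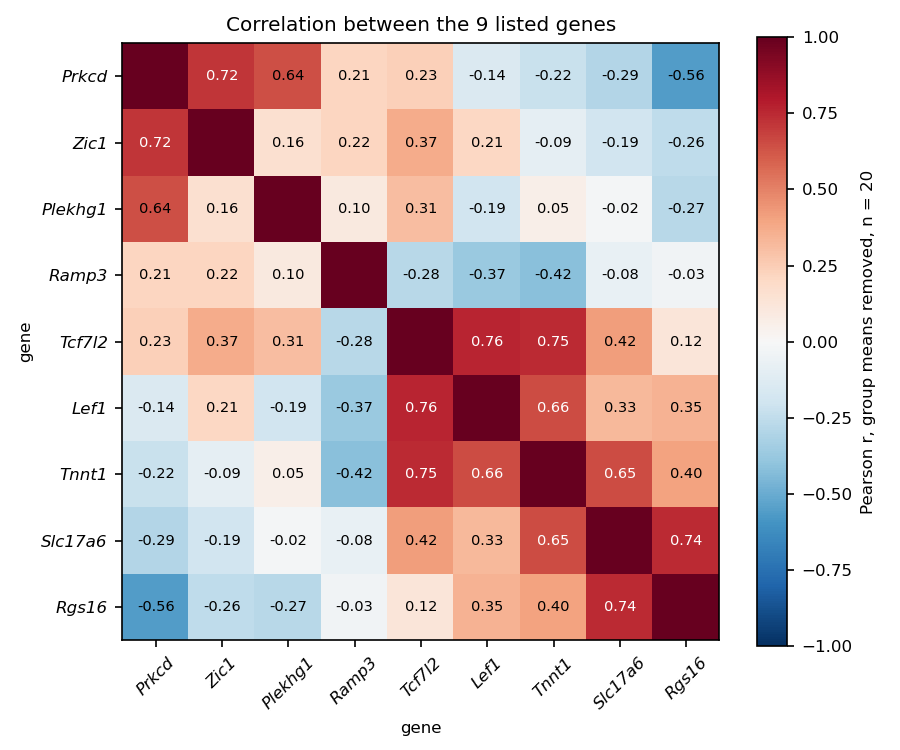
Pearson r between each pair of the 9 listed genes over 20 samples (colour and number), after removal of group means; both axes list the genes. Prkcd with Zic1 (0.717) and Tcf7l2 with Lef1 (0.765) are among the highest, and Prkcd with Rgs16 (-0.561) is the lowest.

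Single pairs were tested by two-sided permutation within groups, with adjustment over the 1134 relations computed between the 9 genes and the genes of all marker lists. A relation passed when the permutation p of Pearson r, adjusted, was under 0.05. Of the 36 pairs 7 had r above 0.6, and 1 (2.78%) passed, a share close to the 2.91% (32 of 1098) of relations with other marker genes. That pair was Rgs16 with Slc17a6 (Pearson r = 0.743, permutation p = 0.000360, adjusted p = 0.0240, Spearman rho = 0.777, permutation p = 0.000440, adjusted p = 0.0384), and r was 0.719 without the 2 samples farthest in Rgs16. Within females r was 0.878 and within males 0.583. Prkcd and Zic1 missed the adjusted threshold (Pearson r = 0.717, permutation p = 0.00224, adjusted p = 0.0577, Spearman rho = 0.644, permutation p = 0.00899, adjusted p = 0.141), with r = 0.703 without the 2 samples farthest in Prkcd. The r of this pair was 0.663 in females and 0.820 in males. Tcf7l2 and Lef1 also missed it (Pearson r = 0.765, permutation p = 0.00286, adjusted p = 0.0690, Spearman rho = 0.696, permutation p = 0.00242, adjusted p = 0.0771), with r = 0.688 without the 2 farthest samples, 0.727 in females and 0.786 in males. Prkcd and Rgs16 varied in opposite directions without passing (Pearson r = -0.561, permutation p = 0.00923, adjusted p = 0.123, Spearman rho = -0.623, permutation p = 0.00713, adjusted p = 0.134; r = -0.536 without the 2 farthest samples).

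Tnnt1 entered 3 of the 7 high pairs, and these were lower without the pair of samples that stood apart. The values were 0.747 with Tcf7l2 (permutation p = 0.0242, adjusted p = 0.184, rho = 0.678, permutation p = 0.00865, adjusted p = 0.141, r = 0.539 without the 2 farthest samples). With Lef1, r was 0.655 (permutation p = 0.0208, adjusted p = 0.178, rho = 0.523, permutation p = 0.0298, adjusted p = 0.214, r = 0.620 without the 2 farthest samples). With Slc17a6, r was 0.651 (permutation p = 0.0280, adjusted p = 0.194, rho = 0.370, permutation p = 0.170, adjusted p = 0.517, r = 0.482 without the 2 farthest samples). Without control female 1 and nPM male 1, r fell to 0.542 for Tcf7l2, 0.0686 for Lef1 and 0.115 for Slc17a6 with Tnnt1. Without these samples the r of Prkcd with Zic1 was 0.682, of Rgs16 with Slc17a6 0.715 and of Tcf7l2 with Lef1 0.599, a setting chosen after seeing the data. Other pairs rose, Tcf7l2 with Zic1 from 0.372 to 0.683 and Prkcd with Tcf7l2 from 0.235 to 0.617, and Tcf7l2 with Slc17a6 fell from 0.417 to -0.125. Prkcd and Plekhg1 completed the 7 (Pearson r = 0.643, permutation p = 0.0215, adjusted p = 0.179, Spearman rho = 0.520, permutation p = 0.0439, adjusted p = 0.266), a relation with r = 0.321 without the 2 samples farthest in Prkcd, so it rested on those samples.

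**Figure D4:**
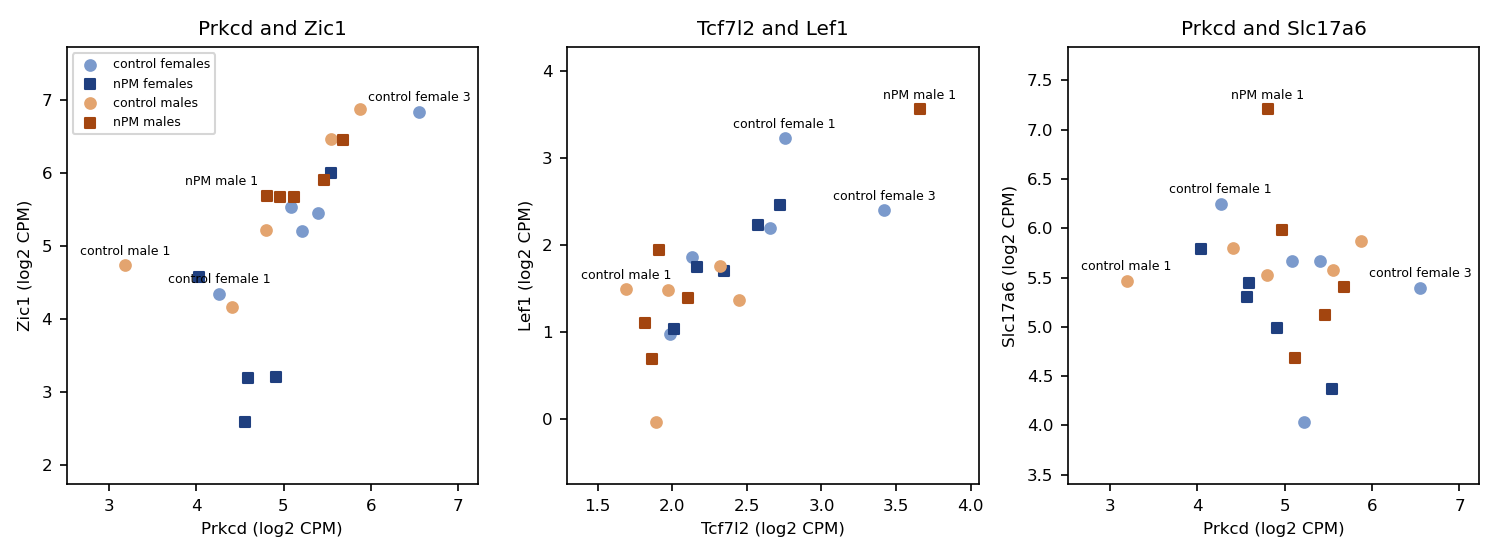
Log2 CPM of a pair of listed genes in each of the 20 samples, before removal of group means, for Prkcd and Zic1, Tcf7l2 and Lef1, and Prkcd and Slc17a6; points are samples, coloured by group. The r after removal of group means is 0.717, 0.765 and -0.290 for the pairs from left to right.

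Slopes of all other tested genes on the log2 CPM of each listed gene, with the 4 groups as covariates, were fitted by limma-voom over 19796 genes; the fit on Prkcd was planned and the other 8 were added after seeing the data. On Prkcd, 1 of the other 8 listed genes passed an adjusted p of 0.05, against 0.631% of all genes: Zic1 rose by 1.07 (SE 0.19, adjusted p = 0.00952) per log2 unit of Prkcd. Its adjusted p was 0.0536 without control male 4. On Zic1, 5.84% of genes passed, and of the 8 only Prkcd did, with a slope of 0.57 (SE 0.11, adjusted p = 0.00428); leaving out any 1 sample kept it below the threshold. On Tcf7l2 (0.404% of genes) 2 of 8 passed, Lef1 with 1.16 (SE 0.19, adjusted p = 0.0203) and Tnnt1 with 0.94 (SE 0.16, adjusted p = 0.0222). The adjusted p of Lef1 was 0.211 without nPM male 1 and that of Tnnt1 0.364 without nPM male 1. By edgeR they were 0.0517 and 0.0550, and without both control female 1 and nPM male 1 0.153 and 0.302.

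On Lef1 (0.217% of genes) 2 of 8 passed, Tcf7l2 with 0.55 (SE 0.10, adjusted p = 0.0265) and Tnnt1 with 0.64 (SE 0.12, adjusted p = 0.0347). For Tcf7l2 the adjusted p was 0.0553 without control female 4, 0.0520 without nPM female 5, 0.570 without nPM male 1, 0.0600 without nPM male 2, 0.0567 without nPM male 4 and 0.0524 without nPM male 5. For Tnnt1 it was 0.666 without nPM male 1, 0.129 without control female 1, and between 0.0507 and 0.0736 without any 1 of control female 4, control male 5, nPM female 2, nPM female 3, nPM female 5, nPM male 2, nPM male 4 and nPM male 5. Without both control female 1 and nPM male 1 the adjusted p was 0.316 for Tcf7l2 and 0.927 for Tnnt1, and for Tnnt1 it was 0.137 by edgeR and 0.169 with age as a covariate. On Tnnt1 (0.52% of genes) Lef1 passed with 1.003 (SE 0.18, adjusted p = 0.0102) and Tcf7l2 with 0.67 (SE 0.13, adjusted p = 0.0139). The adjusted p of Lef1 was 0.0617 without control female 1 and 0.937 without nPM male 1 and that of Tcf7l2 0.9997 without nPM male 1. Without both control female 1 and nPM male 1 they were 0.902 and 0.565. On Slc17a6 (1.11% of genes) Tnnt1 passed with 0.75 (SE 0.16, adjusted p = 0.0244) and Rgs16 with 0.40 (SE 0.09, adjusted p = 0.0442). The adjusted p of Tnnt1 was 0.0874 without control female 1, 0.636 without nPM male 1, 0.0666 without nPM male 3 and 0.0517 without nPM male 5. That of Rgs16 was between 0.0507 and 0.141 without any 1 of control female 1, control female 2, control female 4, control female 5, control male 2, control male 4, control male 5, nPM female 1, nPM female 2, nPM female 3, nPM female 4, nPM female 5, nPM male 2, nPM male 3, nPM male 4 and nPM male 5. Without both control female 1 and nPM male 1 they were 0.958 and 0.219, and that of Rgs16 was 0.0708 with no filter on low counts and 0.0650 with age as a covariate. On Rgs16 (0.642% of genes) Slc17a6 passed with 1.33 (SE 0.29, adjusted p = 0.0405), and its adjusted p was between 0.0504 and 0.173 without any 1 of control female 1, control female 2, control female 3, control female 5, control male 2, control male 5, nPM female 1, nPM female 2, nPM female 3, nPM female 5, nPM male 2, nPM male 4 and nPM male 5. It was 0.0640 with no filter, 0.0567 with age as a covariate and 0.175 without both control female 1 and nPM male 1. On Plekhg1 and on Ramp3 none of the 8 passed, against 0% and 0% of all genes by limma; at an unadjusted p under 0.05 there were 1 and 2 of 8, against 1393 and 1207 of 19796 genes, and edgeR called 0 in both.

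Other thalamic markers followed the 9 listed genes to unequal degrees. The median r with the 13 tested was 0.603 for Tcf7l2, 0.565 for Tnnt1, 0.439 for Lef1 and 0.326 for Slc17a6, but 0.0982 for Zic1, 0.0792 for Plekhg1, 0.0337 for Prkcd and -0.177 for Ramp3, with Rgs16 between them at 0.161. Without control female 1 and nPM male 1 these medians were 0.388 for Tcf7l2, 0.364 for Tnnt1, 0.224 for Lef1 and 0.146 for Slc17a6, against 0.430 for Zic1, 0.387 for Prkcd, 0.187 for Ramp3, 0.167 for Plekhg1 and -0.0890 for Rgs16. In that setting Lef1 had its highest medians with ependymal (0.590), meningeal (0.548) and choroid plexus genes (0.530). Those of Tcf7l2 were with ependymal (0.545), oligodendrocyte (0.447) and dentate gyrus genes (0.444). With all 20 samples, neither gene had a higher median with another list than with the thalamic markers. Zfhx3, a zinc finger homeobox factor, varied with Tcf7l2 (r = 0.900, permutation p = 2e-05, adjusted p = 0.0113, rho = 0.890, permutation p = 1e-05, adjusted p = 0.0113, r = 0.837 without the 2 farthest samples), where 1e-05 is the smallest p the permutations can give. Rora, a nuclear receptor, varied with Rgs16 (r = 0.836, permutation p = 6e-05, adjusted p = 0.0132, rho = 0.829, permutation p = 0.000200, adjusted p = 0.0340, r = 0.821 without the 2 farthest samples). Rora also varied with Slc17a6 (r = 0.836, permutation p = 0.000120, adjusted p = 0.0170, rho = 0.844, permutation p = 0.000260, adjusted p = 0.0340, r = 0.730 without the 2 farthest samples). The other relations that passed with this list were Amotl1 with Tcf7l2 (r = 0.872) and Lef1 (0.762), Plcb4 with Slc17a6 (0.811), Zic4 with Zic1 (0.957) and, below, Lhx9 with Ramp3. The habenular marker Chrna3 varied with Tnnt1 (r = 0.893, permutation p = 0.00125, adjusted p = 0.0490, rho = 0.821, permutation p = 0.00150, adjusted p = 0.0685, r = 0.652 without the 2 farthest samples), unlike its list as a whole, where Tnnt1 had a median r of 0.0115 and a lowest of -0.428 over 6 genes. Nwd2 varied in the opposite direction to Zic1 (r = -0.632, permutation p = 0.00139, adjusted p = 0.0493, rho = -0.609, permutation p = 0.00420, adjusted p = 0.105, r = -0.522 without the 2 farthest samples), where the list had a median r of -0.338 and a highest of 0.544. Without control female 1 and nPM male 1, r was 0.875 for Zfhx3 with Tcf7l2, 0.798 and 0.744 for Rora with Rgs16 and Slc17a6, 0.784 and 0.637 for Amotl1 with Tcf7l2 and Lef1, 0.580 for Plcb4 with Slc17a6, -0.751 for Nwd2 with Zic1, and 0.5002 for Chrna3 with Tnnt1. For Chrna3 with Tnnt1 the 2 farthest samples were these same 2. The 0.652 above kept the group means of all 20 samples, whereas the 0.5002 used group means taken without the 2. Summed over the 15 other thalamic markers, CPM was 641, 569, 619.8, 499 and 472 in control females, 467, 455, 443, 438 and 515 in nPM females, 511, 490.4, 465, 489 and 450.2 in control males, and 783, 437, 449, 504 and 481 in nPM males. nPM male 1 had the highest sum, control female 1 and control female 3 the next, and the most abundant gene of the list was Adarb1, an RNA-editing deaminase, at a mean of 14.4 RPKM.

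Zic1 varied with markers of the ventricular lining. Of 6 ependymal genes 6 passed, with a median r of 0.841, and of 10 choroid plexus genes 7 passed, with a median r of 0.739. By Spearman rho, each of these 7 choroid plexus genes missed the threshold, as did Foxj1 and Rarres2 (adjusted permutation p of 0.0641 to 0.0771). The ependymal genes Ak7, Ccdc153, Dynlrb2 and Tmem212 were under it by rho (adjusted permutation p of 0.0340 to 0.0468). Examples were Foxj1, the master factor of motile cilia (r = 0.860, permutation p = 0.000150, adjusted p = 0.0181, rho = 0.770, permutation p = 0.00197, adjusted p = 0.0771, r = 0.787 without the 2 farthest samples), and Ttr, the transthyretin of choroid plexus (r = 0.741, permutation p = 0.00133, adjusted p = 0.0490, rho = 0.722, permutation p = 0.00255, adjusted p = 0.0771, r = 0.639 without the 2 farthest samples). In CPM, choroid plexus markers summed to 48.1, 291, 88.3, 513 and 366 in control females, 8404, 93.5, 58.2, 72.2 and 1812 in nPM females, 93.3, 5145, 35.9, 7501 and 3018 in control males, and 80.4, 3112, 5705, 175 and 859.9 in nPM males. These sums ranged 234-fold, their most abundant gene was Ttr (mean 1340 RPKM), and no gene of the list was at 0 in any sample. In CPM, ependymal markers summed to 17.6, 23.7, 37.6, 29.9 and 28.2 in control females, 53.7, 17.1, 19.5, 8.87 and 28.0 in nPM females, 18.4, 69.6, 17.1, 56.1 and 36.6 in control males, and 33.7, 43.8, 57.3, 23.4 and 27.5 in nPM males, with Ccdc153, a cilium gene, the most abundant (mean 5.08 RPKM). nPM females 2 to 4, lowest in Zic1, were also low in both sums, whereas control female 3 combined high Zic1 with a low choroid plexus sum. Prkcd had a median r of 0.644 with ependymal, 0.537 with choroid plexus and 0.6001 with oligodendrocyte genes, and no gene of these lists passed with Prkcd. The part of these cells in the variation of Zic1 and Prkcd was not tested.

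Among striatal markers, Zic1 passed with 3 of 10 and Prkcd with 2 of 10. Drd2, the D2 dopamine receptor, varied with Zic1 (r = 0.794, permutation p = 0.000240, adjusted p = 0.0209, rho = 0.740, permutation p = 0.000120, adjusted p = 0.0340, r = 0.656 without the 2 farthest samples) and with Prkcd (r = 0.621, permutation p = 0.000160, adjusted p = 0.0181, rho = 0.623, permutation p = 0.00335, adjusted p = 0.0905, r = 0.632 without the 2 farthest samples), where the median r over the list was 0.581 for Zic1 and 0.259 for Prkcd. The other striatal relations that passed were Penk with Zic1 (r = 0.733) and with Prkcd (0.448), and Ppp1r1b with Zic1 (0.749). By Spearman rho, only Drd2 with Zic1 had an adjusted permutation p under 0.05 (0.0771 for Penk with either gene, 0.159 for Ppp1r1b). The striatal sum was 149 to 212 CPM in 19 samples and 629 in nPM female 1, a sample that ranked number 5 from the top in both Prkcd and Zic1. Within the list of neocortical markers Tshz2, a zinc finger factor, varied with Rgs16 (r = 0.841, permutation p = 0.000340, adjusted p = 0.0240, rho = 0.848, permutation p = 0.000120, adjusted p = 0.0340, r = 0.761 without the 2 farthest samples) and with Slc17a6 (r = 0.721, permutation p = 0.000450, adjusted p = 0.0255, rho = 0.797, permutation p = 0.000290, adjusted p = 0.0340, r = 0.812 without the 2 farthest samples), where the median r over the 7 genes was 0.483 and 0.420. Neocortical sums were 93.0 to 288 CPM. The CA1 marker Man1a, a mannosidase, passed with Prkcd (r = 0.654, permutation p = 0.000330, adjusted p = 0.0240, rho = 0.713, permutation p = 0.00101, adjusted p = 0.0641, r = 0.650 without the 2 farthest samples), but over the 5 CA1 genes Prkcd had a median r of -0.0685 (-0.212 without control female 1 and nPM male 1) and a lowest of -0.463. The interneuron factor Lhx6 passed with Tcf7l2, in the opposite direction (r = -0.630, permutation p = 0.00132, adjusted p = 0.0490, rho = -0.675, permutation p = 0.00151, adjusted p = 0.0685, r = -0.617 without the 2 farthest samples), while over the 8 interneuron genes Tcf7l2 had a median r of -0.216 (-0.504 without the same samples) and a highest of 0.579, for Slc32a1. The thalamic factor Lhx9 also varied oppositely to Ramp3 (r = -0.675, permutation p = 0.000230, adjusted p = 0.0209, rho = -0.714, permutation p = 0.000320, adjusted p = 0.0340, r = -0.540 without the 2 farthest samples), its only relation that passed, and Plekhg1 had none. The highest median r of Plekhg1 over a list was 0.502, with the 8 oligodendrocyte genes (0.341 to 0.621). It was 0.495 without control female 1 and nPM male 1. No relation passed the permutation test with markers of dentate gyrus, CA2 and CA3, meninges, endothelium, oligodendrocytes, their precursors, astrocytes, microglia or blood. In the limma slopes on Zic1, the meningeal genes Lum (adjusted p = 0.0132) and Igf2 (0.0180) and the precursor gene Bmp4 (0.0161) did pass.

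Summed levels show how unequal the samples were for each list, in CPM from the lowest to the highest sample. The 9 listed genes summed to 122 to 334, lowest in control male 1 and highest in control female 3. Neuronal lists spanned 169 to 501 for dentate gyrus, 300.3 to 500.4 for CA1, 127 to 255 for CA2 and CA3, and 523 to 846 for interneurons. Glial lists spanned 2371 to 5449 for oligodendrocytes, 139.9 to 174 for their precursors, 1151 to 1710 for astrocytes and 209 to 318 for microglia. Meninges spanned 25.7 to 249, endothelium 138 to 252.2 and blood 1.14 to 55.4. The blood sum was 55.4 CPM in nPM male 2, 41.2 in control male 1 and 29.2 in nPM male 1, against at most 6.42 in every other sample. nPM male 1 had the lowest CA1 sum and the highest interneuron and astrocyte sums. Control male 1, lowest in Prkcd, was also lowest in the dentate gyrus, CA2 and CA3, and oligodendrocyte sums, and the part of these in the values of the 9 genes was not tested.

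**Figure D5:**
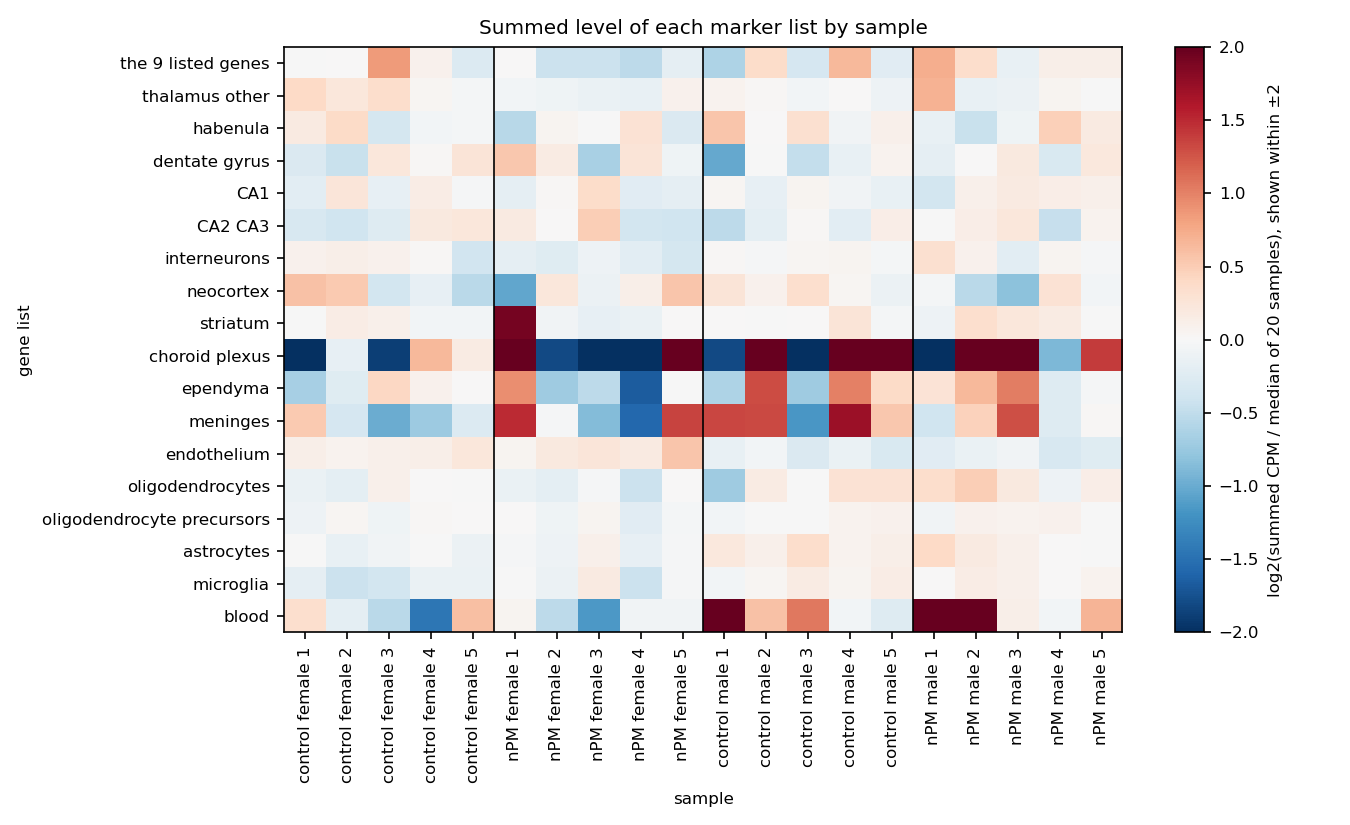
Summed CPM of each marker list (y axis) in each sample (x axis), as log2 of the ratio to the list's median over 20 samples, with colour limited to ±2; lines part the 4 groups. Choroid plexus sums range from 35.9 CPM in control male 3 to 8404 in nPM female 1, and the sum of other thalamic markers is highest in nPM male 1 (783).

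Among the genes outside the 9, those most like the mean of the standardized listed genes were ranked by Pearson r over the 20 samples. Gpr153, an orphan receptor, ranked first (r = 0.944, rho = 0.947, r = 0.929 without the 2 farthest samples). Others among the 10 highest were Zfhx3 (0.875), Magel2 (0.841), A130048G24Rik (0.811), Cacna2d2 (0.805), Amotl1 (0.802), Map3k1 (0.801), Mir7227 (0.800) and Mtss1 (0.798). Zfhx3 and Amotl1 are on the list of other thalamic markers, and the others are on none of the lists used. A130048G24Rik overlaps Ankrd44, Mir7227 overlaps Arid1a, and Zfhx3, Magel2, Cacna2d2, Gpd2, Add1 and Cacna2d3 overlap other gene models, so their counts are uncertain. The lowest values were -0.868 for Gpd2, -0.867 for Acsl4, -0.862 for Add1, -0.855 for Agtpbp1 and -0.854 for Cacna2d3.

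The design asked whether exposure to nPM before birth altered hippocampal expression, and tests on the 9 listed genes were read from limma-voom fits of all genes. In both sexes together, with sex as a covariate, 0 of 9 passed an adjusted p of 0.05 (background 0% of 19797 genes) and 0 of 9 passed the study's p threshold of 0.005 (0.141%, 28 genes), with 0 of 9 at an unadjusted p under 0.05 (2.1% of all genes); edgeR and DESeq2 called 0 of 9. Fitted differences were higher with nPM for 4 and lower for 5, with a median of 0.00 on the log2 scale, compared with -0.01 over all genes tested. Without control female 1 and nPM male 1 they were higher for 3 and lower for 6, with a median of -0.16 against -0.01 over all genes, and 0 with p under 0.05 (1.72% of all genes). Zic1 had the most negative difference, at -0.41 (SE 0.43, adjusted p = 0.9998).

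In males 0 of 9 passed the adjusted threshold (0%) or a p of 0.005 (0.207%, 41 genes), 1 had an unadjusted p under 0.05 (4.28% of all genes), and edgeR and DESeq2 called 0 of 9. The fitted difference was higher with nPM for 7 of 9, with a median of 0.31 against 0.00 over all genes, and without nPM male 1 for 5 of 9, with a median of 0.04 and 1 with p under 0.05 (3.93% of all genes). Plekhg1 measured 43.1 ± 2.82 CPM (SD, n = 5) in nPM males and 35.1 ± 5.51 in control males, a log2 difference of 0.31 (SE 0.10, adjusted p = 0.963). All 5 nPM males lay above the 5 controls, and the two-sided exact permutation p of 0.00794 is the smallest that 5 against 5 allows. The adjusted p of the limma fit did not pass. This exact p is the smallest over the 9 genes in either sex, and the next was 0.0714 (Zic1 in females). The share of all tested genes whose nPM and control males did not overlap is not given here.

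In females 0 of 9 passed (0% adjusted; 0.0909%, 18 genes, at a p of 0.005), 1 had an unadjusted p under 0.05 (1.99% of all genes), and edgeR and DESeq2 called 0 of 9. Differences were lower with nPM for 8 of 9, with a median of -0.21 against 0.00 over all genes, and without control female 1 for 7 of 9, with a median of -0.14 and 2 with p under 0.05 (2.46% of all genes). Zic1 measured 22.4 ± 24.2 CPM (SD, n = 5) in nPM females and 52.4 ± 36.2 in control females, a log2 difference of -1.44 (SE 0.58, adjusted p = 0.9999). The exact permutation p was 0.0714, and nPM female 1, at 64.0 CPM, lay above 4 of 5 controls. Prkcd measured 28.1 ± 11.3 CPM in nPM and 45.3 ± 28.5 CPM in control females, with a log2 difference of -0.56 (SE 0.37, adjusted p = 0.9999).

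A difference between the sexes in the nPM effect was tested as an interaction, and 0 of 9 passed (0% adjusted; 0.217%, 43 genes, at a p of 0.005), with 1 at an unadjusted p under 0.05 (3.79% of all genes) and 0 by edgeR and DESeq2. The interaction of Zic1 was 1.81 (SE 0.79, adjusted p = 0.987) and that of Plekhg1 0.34 (SE 0.17, adjusted p = 0.987), male minus female effect on the log2 scale. It was positive for 7 of 9 (median 0.41), and without control female 1 and nPM male 1 for 5 of 9 (median 0.08, 2 with p under 0.05, against 4.85% of all genes). Of the 13 other thalamic markers tested 0 passed in any of these fits by limma. Their fitted differences were lower with nPM for 13 of 13 in females (median -0.27, 2 with p under 0.05) and higher for 11 of 13 in males (median 0.22, 1 with p under 0.05). The interaction was positive for 13 of 13 (median 0.45, 4 with p under 0.05), in comparisons that share their samples; the shares of all genes at that level are those above. Over all 19797 genes 9656 were lower in females, 9810 higher in males and 10398 positive in the interaction. Runs in 1 direction were not limited to thalamic markers: in the interaction oligodendrocyte genes were positive for 8 of 8 (median 0.31), meningeal for 0 of 7, microglial for 0 of 6 and choroid plexus genes for 1 of 10 (median -1.25). In females interneuron genes were lower for 7 of 8, neocortical for 6 of 7 and ependymal, which varied with Zic1, for 5 of 6 (median -0.20). Choroid plexus genes were higher for 9 of 10 (median 0.89), endothelial for 7 of 7 and microglial for 6 of 6. In males oligodendrocyte genes were higher for 8 of 8, and neocortical and meningeal genes for 0 of 7 each. The 4 thalamic markers with p under 0.05 in the interaction were Zfhx3 (1.39, SE 0.58), Adarb1 (0.23, SE 0.10), Vav3, an exchange factor (0.45, SE 0.21), and Plcb4 (0.71, SE 0.34), each with an adjusted p of 0.987. Control female 1 and nPM male 1, the highest in Plcb4, both enter this contrast with a positive sign. Without them the interaction of the thalamic markers was positive for 11 of 13 (median 0.26, 0 with p under 0.05), the nPM difference in males higher for 7 of 13 (median 0.05, 0 with p under 0.05), and that in females lower for 13 of 13 (median -0.26, 0 with p under 0.05).

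Between males and females 0 of 9 passed an adjusted p of 0.05, although 40.4% of all genes did, and 0 of 9 passed a p of 0.005 (31.1%); 1 had an unadjusted p under 0.05 (48.4% of all genes), edgeR called 0 and DESeq2 1. Plekhg1 came nearest, with a male minus female log2 difference of -0.22 (SE 0.09, adjusted p = 0.0564), followed by Zic1 at 0.86 (SE 0.44, adjusted p = 0.123). For Plekhg1 the adjusted p was 0.0475 without control female 2, 0.0292 without nPM female 1, 0.0438 without nPM female 4, 0.0484 without nPM male 3 and 0.0346 without nPM male 5. For Zic1 the adjusted p was 0.0409 without control female 3 and 0.0459 without control male 3. For Lef1 the adjusted p was 0.0398 without nPM male 1. For Tcf7l2 the adjusted p was 0.0254 without nPM male 1. DESeq2 gave 0.0388 for Plekhg1. Of the 13 other thalamic markers 1 passed, Adarb1, lower in males (-0.18, SE 0.06, adjusted p = 0.0137).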

How the data were processed

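The authors deposited a table of read counts per gene for 20 samples with gene lengths and a mean RPKM, and counts were used for every test. RPKM was computed here from counts and the deposited lengths, and the authors' mean RPKM served only to check the lengths. Per the submitters' processing notes, reads were trimmed with Trimmomatic, checked with FastQC, aligned with HISAT2 and counted with featureCounts 1.5.0-p3 on mm10 with Gencode M11 genes; strand setting and treatment of reads with several matches were not given in the sources used here.

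Genes were filtered with filterByExpr (minimum count 10, total 15), scaled by TMM and fitted with limma-voom (R 4.3.3, edgeR 4.0.16, limma 3.58.1, DESeq2 1.42.0), two-sided, with Benjamini-Hochberg adjustment over all genes tested. The study's threshold, a p of 0.005, was applied beside an adjusted p of 0.05. Correlations used log2 CPM (0.5 counts added) with group means removed and 100000 permutations within groups, adjusted over 1134 relations (Python 3.11.15, numpy 2.4.6, pandas 2.3.3, matplotlib 3.10.9). Values of r without the 2 farthest samples kept the group means of all 20 samples. Those without control female 1 and nPM male 1 used group means taken without them. Exact tests took all splits of 5 against 5. Genes outside the lists were named by the 10 highest and 5 lowest r to the mean of the 9 listed genes over 20 samples, 1 of which is not reported here; those named for single listed genes were chosen after their values were seen. Alternatives were edgeR quasi-likelihood and DESeq2 tests, RLE scaling, no TMM, no filter, 2 counts added, Spearman rho, group means kept, age as a covariate, the replicate number within sex as a block, and samples left out. The 9 genes and the marker lists were chosen with earlier results of these data known. The scripts were tested on simulated data with known changes.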

Additional observations from a re-analysis of the deposited data

Results flagged for a closer look

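Each of the 9 listed genes was screened in each of the 4 groups for a single sample far from the other 4, by the gap to its nearest neighbour as a share of the group's range on the log2 CPM scale (Dixon's ratio, critical value 0.71). Such a screen picks about 1 in 20 groups by chance, so 1.8 of the 36 combinations would be picked, and 3 were. Tcf7l2 was 3.66 in nPM male 1, with the nearest nPM male at 2.11 (ratio 0.842). Tnnt1 was 2.12 in the same sample, with the nearest at 0.27 (ratio 0.901). Lef1 was -0.0314 in control male 3, with the nearest control male at 1.36 (ratio 0.781).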

How the results depend on the processing

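The settings below changed the number of listed genes with an adjusted p under 0.05 or the variance share, and the cause was not tested. In the 3 nPM comparisons and the interaction the number stayed at 0 under every alternative, and the median pairwise r stayed positive under all 28 (0.0489 to 0.182 with 1 sample left out). Leaving out each sample in turn gave 0 to 2 genes between the sexes (0 with all), and in slopes 0 to 1 on Prkcd (1), 0 to 2 on Tcf7l2 (2), 0 to 2 on Lef1 (2), 0 to 1 on Rgs16 (1), 0 to 2 on Slc17a6 (2), 0 to 3 on Tnnt1 (2) and 1 to 1 on Zic1 (1). The variance share of the first component was 33.0 to 39.98%, and 30.0% without control female 3 and nPM male 1, the 2 samples farthest in the mean of the 9 genes. The edgeR test gave 0 on Tcf7l2 and 1 on Lef1, DESeq2 gave 1 between the sexes, age as a covariate gave 1 on Lef1, 0 on Rgs16 and 1 on Slc17a6, and no filter on low counts gave 0 on Rgs16 and 1 on Slc17a6. Without both control female 1 and nPM male 1, chosen after seeing the data, there were 1 between the sexes, 0 on Tcf7l2, Lef1, Rgs16, Slc17a6 and Tnnt1, and 2 on Zic1, where Tcf7l2 joined (adjusted p = 0.0405).

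Within a sex, the same replicate number gave r of -0.364 to 0.157 between exposures, and a sample's own number was its best match in 0 of 10. With 5 candidates for each sample, few best matches arise by chance too. This check therefore cannot decide whether samples of the same number share a litter or a batch. Between males and females of an exposure r was -0.226 to 0.224, and the own number was best in 4 of 10. These were controls 1, 4 and 5 (r of 0.174, 0.187 and 0.224) and nPM 4 (0.165), and the others lay between -0.226 and 0.0323. A block across the sexes was not fitted, so the comparison of males with females was not checked for it. With the number within each sex as a block, 0 of the 8 other genes passed on Prkcd (Zic1 adjusted p = 0.0666), Tcf7l2, Lef1, Rgs16, Slc17a6 or Tnnt1, and Prkcd still passed on Zic1 (0.0440). Because the block fits a term for each number within each sex, it leaves fewer degrees of freedom for error than the main fit. The part of this loss in the changed calls was not tested. Adjusted p-values under the block were 0.396 for Lef1 and 0.373 for Tnnt1 on Tcf7l2, 0.987 for Tcf7l2 and 0.987 for Tnnt1 on Lef1, 0.538 for Rgs16 and 0.244 for Tnnt1 on Slc17a6, 0.662 for Lef1 and 0.562 for Tcf7l2 on Tnnt1 and 0.624 for Slc17a6 on Rgs16.

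Counts over all genes also moved. On Prkcd 125 genes passed, against 582 by DESeq2, 909 with age and 8 with the block, on Tcf7l2 80 against 13 by edgeR, on Lef1 43 against 21 by edgeR and 1 with age, on Rgs16 127 against 82 with age and 54 with no filter, and on Tnnt1 103 against 58 by edgeR. The block gave 243 on Zic1 (1156 without it), 11 on Slc17a6 (220 without it) and 0 on Tcf7l2, Lef1, Rgs16 and Tnnt1. Without both samples the counts were 16 on Tcf7l2, 2 on Rgs16, 6 on Slc17a6 and 0 on Lef1 and Tnnt1. With 1 sample left out they ranged from 42 (without nPM female 1) to 458 (without control female 3) on Prkcd, from 5 (without nPM male 1) to 149 (without control female 3) on Tcf7l2, from 0 (without nPM male 1) to 56 (without nPM male 3) on Lef1, from 3 (without control female 1) to 160 (without control male 3) on Rgs16, from 81 (without control female 1) to 320 (without control male 1) on Slc17a6, from 0 (without nPM male 1) to 148 (without control male 1) on Tnnt1 and from 236 (without nPM female 1) to 1634 (without control female 3) on Zic1.

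The smallest difference detectable with 5 animals a group was not measured, and litters, dissection and batches of library preparation were not analysed here.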

Other observations

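Genes that varied most closely with single listed genes over the 20 samples were chosen after their values were seen and are given as descriptions, by Pearson r after removal of group means. Among the highest for Zic1 were Zic4 (0.957), Zic5 (0.956), Zic2 (0.932) and Six3 (0.925), other members of the ZIC family and a forebrain homeobox factor, where Zic4 overlaps Zic1 on the opposite strand. For Prkcd the highest were Inafm2 (0.926), Cacng5 (0.921) and Avpr1a (0.916), and for Slc17a6 Chrm2 (0.923) and Slc8a3 (0.920).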
